A study of Homo sapiens with 18 samples.

Results

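Under erastin, MDA-MB-231 cells with a knockdown of IGFBP6 were set against cells of the same line with a control hairpin, 24 h after the drug was added. The comparison took the 6 libraries labelled erastin of the 18 in the series, 3 of each line, and asked which RNA levels the 2 lines reached under the same drug. MDA-MB-231 is a human triple-negative breast cancer cell line with a mesenchymal form. The sh-IGFBP6 group carried a short hairpin RNA against IGFBP6 (genotype label IGFBP6 knockdown), and the sh-LUC group a hairpin against luciferase (genotype label WT). Both groups were given 2.5 µM erastin in DMSO with 0.5% ethanol for 24 h. The same 2 lines in vehicle (0.5% DMSO and 0.5% ethanol, 24 h, 3 libraries each) serve as the comparison without the drug and share no library with it. The 6 remaining libraries, both lines with 200 µM DHA, entered the same fit (gene filter, scaling and spread between replicates) but no comparison. The labels do not say whether a line is 1 clone or a pool, or how many hairpins were used, so an effect of IGFBP6 and a difference between 2 derived lines cannot be told apart. They also do not say whether the 3 samples of a group were separate cultures, so the p-values are set by how far these samples lie apart, and that distance may be technical.

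Erastin blocks system xc-, the antiporter of SLC7A11 and SLC3A2 that brings cystine into the cell in exchange for glutamate. Cells short of cystine make less glutathione, the substrate with which GPX4 reduces lipid peroxides, and die by ferroptosis when iron-driven peroxidation of membrane lipids goes unchecked. On the way the transcription factor ATF4 raises genes for amino acid supply (the integrated stress response), NRF2 raises antioxidant genes, and HSF1 raises genes of protein chaperones. IGFBP6 is a secreted protein that binds insulin-like growth factor 2.

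IGFBP6, the targeted gene, stood at 0.559, 0.435 and 3.94 CPM (counts normalised to the TMM-scaled library size) in sh-IGFBP6 erastin, against 16.1, 16.1 and 16.0 CPM in sh-LUC erastin. IGFBP6 lies at chr12:53097436-53102345 (GRCh38, GENCODE 29 coordinates). The 3 sh-IGFBP6 values rest on 4, 2 and 1 counts: the first 2 libraries lie below every sh-LUC erastin library by far, while 1 count in the third is too few to show the knockdown there. The log2 fold change was -4.72 ± 0.32 (SE, n = 3 each; edgeR adjusted p = 6.64e-28). Below, a value after ± is the SE for a log2 fold change and the SD over 3 libraries for a level. A gene is higher, lower or called where the quasi-likelihood F test of edgeR gave a p below 0.05 after Benjamini-Hochberg adjustment over all genes. The SE is derived from F and is too small where a group has few counts, as for IGFBP6, CCL2, SERPINB2 and COL5A1. Library depth was 7153762, 4497420 and 609936 gene counts in sh-IGFBP6 erastin, against 7281095 to 7977429 in sh-LUC erastin. The third sh-IGFBP6 erastin library stood apart: MT-RNR1 and MT-RNR2, which encode mitochondrial ribosomal RNA, took 54.4% of its counts, while they took 0.0349% to 0.504% in each of the other 17 libraries. These 2 genes were left out, which left 278278 counts there, so that 1 count is worth 3.94 CPM. Its log2 levels correlated with those of the other sh-IGFBP6 erastin libraries at r = 0.934 and 0.931 across 8063 genes, and with those of sh-LUC erastin at 0.678 to 0.686 (across genes, which are not independent replicates). As a check of identity, VIM, a mesenchymal filament protein, was at 1387, 1473 and 1353 CPM in sh-IGFBP6 erastin and at 889, 902 and 904 CPM in sh-LUC erastin, while CDH1 (E-cadherin, an epithelial adhesion protein) was at 0.280, 0.217 and 0 CPM in sh-IGFBP6 erastin and 3.19, 3.61 and 3.33 CPM in sh-LUC erastin. Of 11 leukocyte markers, CD3E, MS4A1, LYZ and TYROBP had no count in either erastin group, and the list summed to 3.08 to 7.89 CPM in sh-IGFBP6 erastin and 4.31 to 6.07 CPM in sh-LUC erastin. The 11 fibroblast and endothelial markers summed to 3.94 to 13.9 CPM in sh-IGFBP6 erastin and 20.7 to 22.3 CPM in sh-LUC erastin, and CDH5 had no count in either group. The 15 luminal epithelial markers summed to 793 to 977.5 CPM in sh-IGFBP6 erastin and 1531 to 1540 CPM in sh-LUC erastin, and the 6 basal markers to 1161 to 1251 CPM in sh-IGFBP6 erastin and 931 to 981.5 CPM in sh-LUC erastin. The part of these markers in the results was not tested. RNA was taken from whole wells, so fewer living cells of a state and less RNA per cell cannot be told apart.

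The 2 lines differed broadly under erastin. Of 15294 genes tested, 10306 (67.4%) were called: 5071 (33.2%) were higher in sh-IGFBP6 and 5235 (34.2%) lower. At least 2-fold higher were 1771 (11.6%) and at least 2-fold lower 2076 (13.6%). The median log2 fold change over all genes was -0.01 and the middle 50% lay between -0.56 and 0.50, while the spread between replicates was 5.31% (the common biological coefficient of variation). The libraries of the 2 groups did not overlap for 9192 genes (60.1%). Without the third sh-IGFBP6 erastin library more genes passed the filter: 15750 were tested and 10463 called, 5166 higher and 5297 lower. Of these calls, 10162 were shared with the same direction. Any count within a list of genes below is to be read against these shares. For counts in vehicle the shares over all genes are 31.8% higher and 32.6% lower. For the difference between the line differences (under erastin minus in vehicle) they are 14.1% higher and 11.9% lower.

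**Figure D1:**
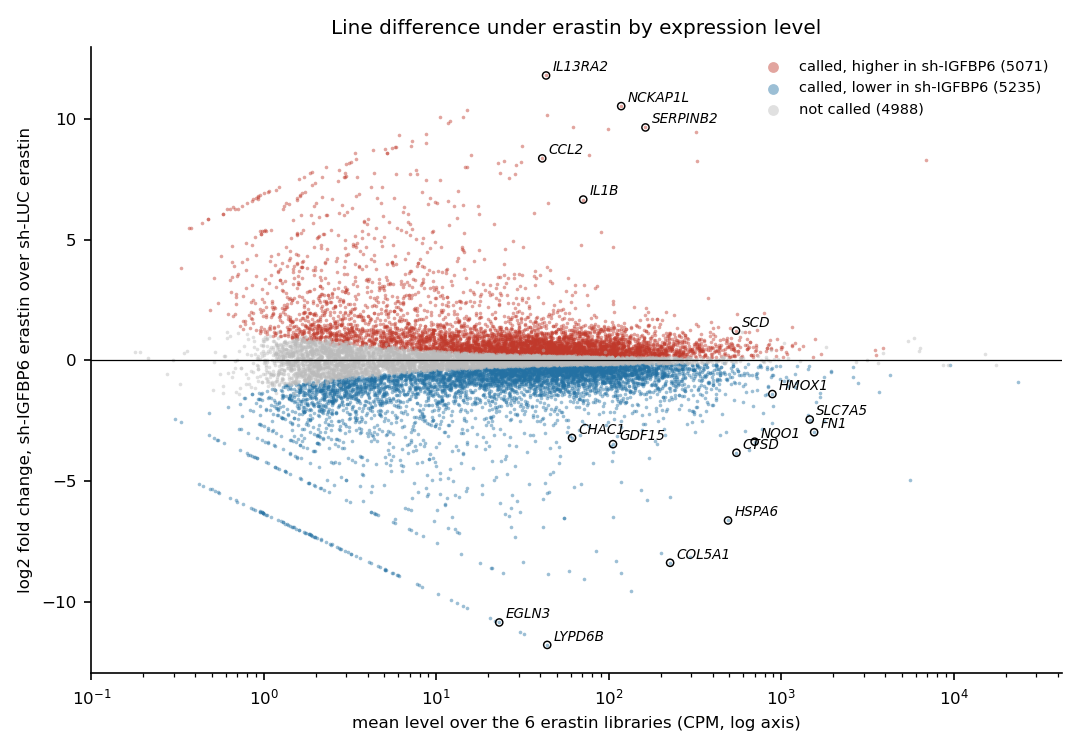
Each point is 1 of 15294 genes, placed by its mean level over the 6 erastin libraries (x axis, CPM, log scale) and its log2 fold change, sh-IGFBP6 erastin over sh-LUC erastin (y axis). The 5071 genes called higher and the 5235 called lower cover the whole range of levels, and the named genes among abundant transcripts include FN1, SLC7A5, NQO1 and HSPA6 below 0 and SCD and SERPINB2 above it.

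Both subunits of the antiporter that erastin blocks, and GPX4, were lower in the knockdown line, each by less than 2-fold. SLC7A11 (chr4:138164097-138242349) reached 540.0, 494 and 552 CPM in sh-IGFBP6 erastin, against 759.9, 764 and 695 CPM in sh-LUC erastin (-0.50 ± 0.06 log2, SE; edgeR adjusted p = 2.21e-12). In vehicle the order of the lines was the other way round, 234 ± 28.0 CPM in sh-IGFBP6 and 61.4 ± 5.49 CPM in sh-LUC (SD, n = 3 each), a log2 fold change of 1.93 ± 0.08. The difference between the 2 line differences was -2.43 ± 0.10 (SE; edgeR adjusted p = 2.96e-41), the smallest p of any called gene averaging 5 CPM or more. SLC3A2, the heavy chain of the antiporter, was at 362, 355 and 434 CPM in sh-IGFBP6 erastin and at 712, 663 and 696 CPM in sh-LUC erastin (-0.91 ± 0.06). GPX4 (chr19:1103926-1106791) stood at 103, 98.7 and 130.1 CPM in sh-IGFBP6 erastin and at 148, 159.8 and 164 CPM in sh-LUC erastin (-0.62 ± 0.07), and its line difference in vehicle was of like size (-0.80 ± 0.07; test of the difference, edgeR adjusted p = 0.184). For all 3 genes the groups did not overlap. Of 20 suppressors of ferroptosis tested, 6 were higher and 8 lower with a median of -0.03, against -0.01 over all genes. AIFM2, which regenerates reduced ubiquinone at the membrane, was higher (0.34 ± 0.09), a call that was lost without the first sh-IGFBP6 erastin library (0.24, edgeR adjusted p = 0.0823).

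Of 18 drivers of ferroptosis 7 were higher and 5 lower, a share near that of all genes. ACSL4, which loads polyunsaturated fatty acids onto coenzyme A for phospholipids, was lower at 129, 135 and 149.8 CPM in sh-IGFBP6 erastin, against 200.3, 195 and 208 CPM in sh-LUC erastin (-0.60 ± 0.07). PTGS2, the inducible cyclooxygenase often used as a marker of ferroptosis, was at 154, 138 and 162 CPM in sh-IGFBP6 erastin and 250.1, 198 and 213 CPM in sh-LUC erastin (-0.58 ± 0.07), while in vehicle it was higher in the knockdown line (0.90 ± 0.13). SAT1, a polyamine acetyltransferase that is a p53 target, gave the opposite pattern: 93.8, 130.1 and 94.6 CPM in sh-IGFBP6 erastin, against 83.5, 82.3 and 81.2 CPM in sh-LUC erastin (0.41 ± 0.08), with 22.5 ± 1.27 CPM in sh-IGFBP6 vehicle and 79.6 ± 10.6 CPM in sh-LUC vehicle. Its line difference under erastin was no longer called without the second sh-IGFBP6 erastin library (0.18, edgeR adjusted p = 0.095), but the difference between the line differences was (2.24 ± 0.14).

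Genes of iron handling did not move as 1 block: of 24 tested, 10 were higher and 6 lower (median 0.12). TFRC, the transferrin receptor that brings iron in, reached 598, 658 and 619 CPM in sh-IGFBP6 erastin, against 433, 434 and 422 CPM in sh-LUC erastin (0.54 ± 0.06). The lines lay further apart in vehicle, at 566 ± 39.0 CPM in sh-IGFBP6 and 103 ± 7.53 CPM in sh-LUC, and the difference between the line differences was -1.91 ± 0.09 (edgeR adjusted p = 3.36e-39). FTH1, the ferritin heavy chain that stores iron, was higher at 1128, 1005 and 1534 CPM in sh-IGFBP6 erastin than in sh-LUC erastin, which had 855, 808 and 674 CPM (0.58 ± 0.14); the third sh-IGFBP6 library is the highest of the 6. SLC40A1, the iron exporter, was also higher (1.46 ± 0.22), at 9.51, 11.7 and 7.89 CPM in sh-IGFBP6 erastin and 4.25, 3.89 and 3.20 CPM in sh-LUC erastin. HMOX1, which frees iron from haem, was lower: 443, 486 and 607 CPM in sh-IGFBP6 erastin, against 1385, 1342 and 1061 CPM in sh-LUC erastin (-1.39 ± 0.10). In vehicle HMOX1 was at 6.10 ± 1.09 CPM in sh-IGFBP6 and 4.97 ± 0.859 CPM in sh-LUC and its line difference was not called (0.33 ± 0.38), while the difference between the line differences was called (-1.72 ± 0.38; edgeR adjusted p = 0.00229).

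**Figure D2:**
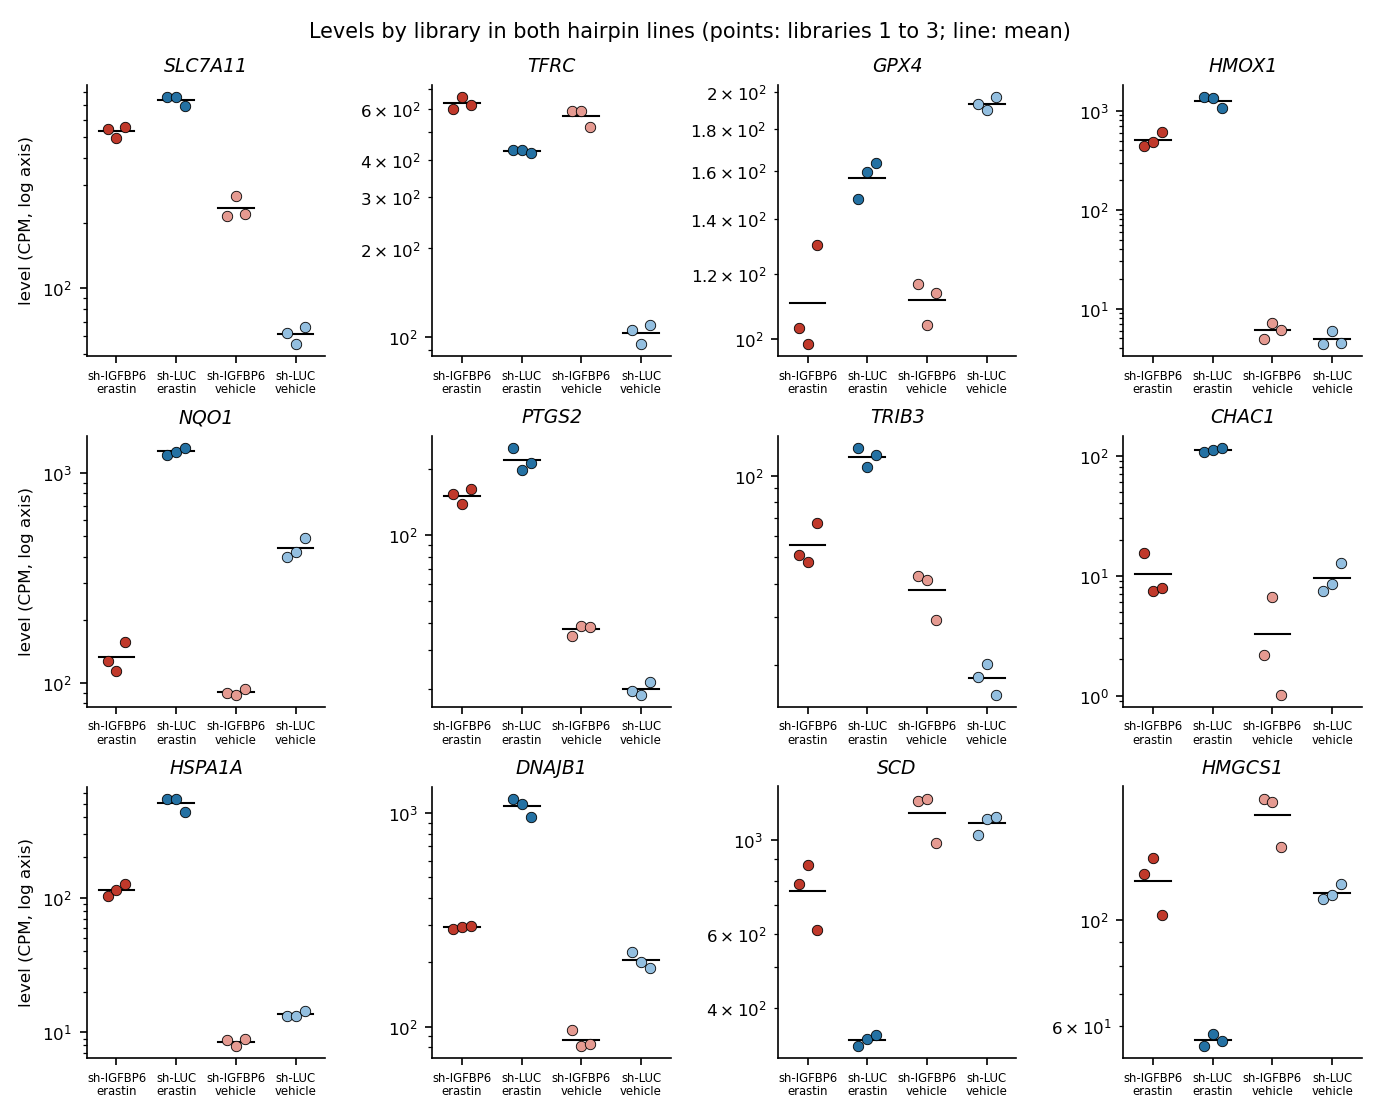
Levels (CPM, log axis) of 12 genes in each library of sh-IGFBP6 erastin, sh-LUC erastin, sh-IGFBP6 vehicle and sh-LUC vehicle, with points for the 3 libraries and a line at their mean. SLC7A11, PTGS2 and TRIB3 are lower in sh-IGFBP6 than in sh-LUC under erastin and higher in vehicle, while SCD and HMGCS1 lie highest in sh-IGFBP6 vehicle and lowest in sh-LUC erastin.

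The integrated stress response stood lower in the knockdown line under erastin. Of 24 genes tested 19 were lower and 2 higher (median -0.79), against 34.2% lower and 33.2% higher over all genes, and the same counts were obtained without the third sh-IGFBP6 erastin library. In vehicle the median of the list was 0.65, with 14 genes higher and 7 lower in the knockdown line, against 31.8% higher and 32.6% lower over all genes. The difference between the 2 line differences was called for 19 of the 24, all with a lower value under erastin, against 26.0% of all genes called in either direction (14.1% higher, 11.9% lower). 10 genes were called lower in the knockdown line under erastin and higher in it in vehicle, against 1.29% of all genes: ATF3, ATF4, CTH, MTHFD2, PCK2, PPP1R15A, PSAT1, PSPH, SESN2 and TRIB3 (named from the list's count, after its values were seen). The vehicle side rests in part on 1 library: without the second sh-IGFBP6 vehicle library the vehicle median was 0.28, the difference was lower for 14 and 8 genes were called in opposite directions.

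CHAC1, which degrades glutathione, stood at 15.5, 7.39 and 7.89 CPM in sh-IGFBP6 erastin, against 108, 111 and 116 CPM in sh-LUC erastin (-3.21 ± 0.24, 9.23-fold lower). GDF15, a secreted stress hormone, stood at 17.5, 16.7 and 23.7 CPM in sh-IGFBP6 erastin and 209.5, 188 and 179 CPM in sh-LUC erastin (-3.47 ± 0.10, 11.1-fold lower). For both genes the line difference was already there in vehicle (-1.45 ± 0.53 for CHAC1 and -2.47 ± 0.21 for GDF15), and its change under erastin passed the test for GDF15 (-0.996 ± 0.28, edgeR adjusted p = 0.00419) but not for CHAC1 (-1.76 ± 0.66, edgeR adjusted p = 0.0701). The change for GDF15 was no longer called without the second sh-IGFBP6 vehicle library (-0.74, edgeR adjusted p = 0.138). TRIB3, a pseudokinase and ATF4 target, was at 51.2, 48.1 and 67.0 CPM in sh-IGFBP6 erastin and 127, 108 and 119 CPM in sh-LUC erastin (-1.23 ± 0.09), with a line difference of 1.09 ± 0.14 in vehicle. ATF3, a stress-induced transcription factor, was at 44.8, 56.3 and 63.1 CPM in sh-IGFBP6 erastin and 120.3, 112 and 97.4 CPM in sh-LUC erastin (-1.13 ± 0.09). MTHFD2, a mitochondrial folate enzyme, was at 83.3, 81.1 and 106 CPM in sh-IGFBP6 erastin and 185, 167 and 162 CPM in sh-LUC erastin (-1.04 ± 0.08). In vehicle both were higher in the knockdown line (1.28 ± 0.33 for ATF3 and 1.39 ± 0.11 for MTHFD2). Each of these 5 genes had no overlap between the 2 groups under erastin.

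ATF4 itself, whose protein is controlled largely by translation, differed little: 309, 285 and 312 CPM in sh-IGFBP6 erastin and 377, 364 and 363 CPM in sh-LUC erastin (-0.30 ± 0.06). PSAT1, an enzyme of serine synthesis, differed by -0.28 ± 0.07 under erastin and by 1.75 ± 0.09 in vehicle. ASNS (asparagine synthetase), chosen after its values were seen, was at 5.17, 4.78 and 3.94 CPM in sh-IGFBP6 erastin and 17.0, 17.8 and 19.6 CPM in sh-LUC erastin (-1.86 ± 0.21), the sh-IGFBP6 values resting on 37, 22 and 1 counts. 2 members were higher in the knockdown line. DDIT3 (CHOP), a death-linked factor of the response, was at 25.9, 29.1 and 55.2 CPM in sh-IGFBP6 erastin and 12.9, 16.4 and 13.3 CPM in sh-LUC erastin (0.98 ± 0.14), as it was in vehicle (1.00 ± 0.21). PHGDH, the first enzyme of serine synthesis, was at 55.5, 55.7 and 55.2 CPM in sh-IGFBP6 erastin and 33.8, 32.4 and 35.2 CPM in sh-LUC erastin (0.72 ± 0.10), a smaller line difference than in vehicle (3.11 ± 0.19; edgeR adjusted p of the difference 1.03e-16).

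ATF4 binds the amino acid response element, and its core was searched in promoters (RefSeq, GRCh38.p14, 250 bases before to 50 after the gene start, both strands). The letters TGATGNAA are in 3.67% of 27305 promoters, in 1.85% of the 11008 promoters of tested genes, and in 3 of the 21 members of the list with a promoter (ASNS, ATF3 and CHAC1). A match is a description of the sequence, and no match says only that these letters are not in the window. The promoters of CHAC1 and ASNS are shown because they hold the match and differed by more than ATF3 did; the match is in capitals, beginning 209 bases before the start of CHAC1 on the opposite strand and 68 bases before that of ASNS. They lie at chr15:40953221-40953520 (plus strand) and chr7:97872359-97872658 (minus strand).
CHAC1: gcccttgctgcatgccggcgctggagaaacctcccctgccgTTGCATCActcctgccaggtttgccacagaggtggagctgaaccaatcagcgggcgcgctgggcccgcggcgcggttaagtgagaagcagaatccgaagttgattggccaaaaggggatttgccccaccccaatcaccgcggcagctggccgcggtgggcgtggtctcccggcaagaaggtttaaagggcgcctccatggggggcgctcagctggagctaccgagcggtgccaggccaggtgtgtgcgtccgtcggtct
ASNS: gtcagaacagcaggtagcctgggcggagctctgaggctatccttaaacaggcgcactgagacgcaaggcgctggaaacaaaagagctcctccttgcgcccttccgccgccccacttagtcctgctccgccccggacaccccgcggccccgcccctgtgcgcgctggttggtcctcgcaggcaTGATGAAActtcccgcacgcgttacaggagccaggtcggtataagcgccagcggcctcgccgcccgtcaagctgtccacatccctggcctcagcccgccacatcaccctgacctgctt

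**Figure D3:**
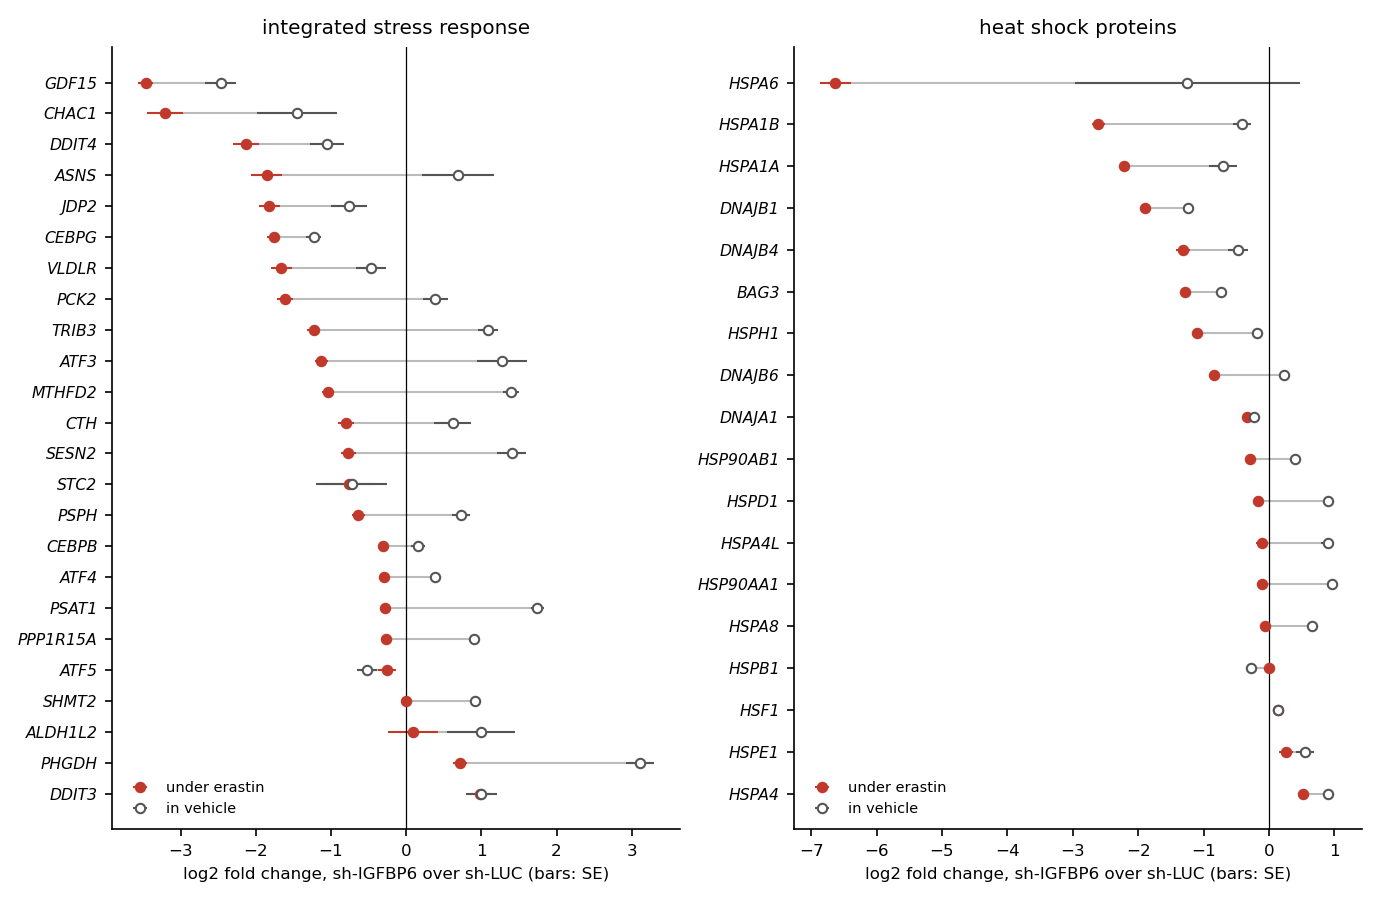
Line differences (x axis, log2 fold change of sh-IGFBP6 over sh-LUC, bars are SE) under erastin (filled) and in vehicle (open) for 24 genes of the integrated stress response and 18 heat shock genes. In the left panel most filled points lie below 0 and most open points above it; in the right panel HSPA6, HSPA1B and HSPA1A lie lowest under erastin.

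Genes that supply amino acids to translation were split. Of 20 cytosolic aminoacyl-tRNA synthetases 8 were higher and 10 lower under erastin, with a median of -0.12 that became 0.01 when libraries were scaled by size alone; in vehicle 16 were higher and 1 lower (median 0.65). The difference between the line differences was lower for 14 and higher for 1. AARS1, for alanine, was at 124, 98.5 and 122 CPM in sh-IGFBP6 erastin and 440.3, 412 and 381 CPM in sh-LUC erastin (-1.86 ± 0.07). RARS1, for arginine, was higher at 171, 169 and 169.6 CPM in sh-IGFBP6 erastin, against 70.3, 71.0 and 74.3 CPM in sh-LUC erastin (1.24 ± 0.07), with 1.25 ± 0.08 in vehicle.

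Of 15 amino acid transporters 10 were lower and 3 higher (median -0.75). SLC7A5, the importer of large neutral amino acids that pairs with SLC3A2, was at 507, 395 and 457 CPM in sh-IGFBP6 erastin, against 2557, 2368 and 2479 CPM in sh-LUC erastin (-2.45 ± 0.07, 5.45-fold lower). SLC1A4, for serine and other small neutral amino acids, was at 33.7, 25.9 and 39.4 CPM in sh-IGFBP6 erastin and 141, 143 and 143 CPM in sh-LUC erastin (-2.22 ± 0.09). SLC6A9, for glycine, differed by -2.45 ± 0.11. These 3 were also lower in the knockdown line in vehicle, with log2 fold changes of -1.18 to -1.81. SLC7A1, for arginine and lysine, was at 388, 351 and 390.4 CPM in sh-IGFBP6 erastin and 722, 655 and 694 CPM in sh-LUC erastin (-0.89 ± 0.06) but higher in the knockdown line in vehicle (0.53 ± 0.06). SLC7A2, another carrier of basic amino acids, was higher (1.79 ± 0.11), and SLC6A6, for taurine, was higher under erastin (0.41 ± 0.06) and lower in vehicle (-0.54 ± 0.06).

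Heat shock genes were more often lower than higher in the knockdown line, and HSPA6 lay furthest apart. HSPA6 (chr1:161524540-161526910), a strictly stress-induced member of the HSP70 family, stood at 10.3, 9.13 and 7.89 CPM in sh-IGFBP6 erastin, against 1014, 1034 and 870.2 CPM in sh-LUC erastin (-6.63 ± 0.23, 98.9-fold lower; edgeR adjusted p = 7.2e-12). The sh-IGFBP6 values rest on 74, 42 and 2 counts. In vehicle HSPA6 had at most 5 counts in any library of either line, its line difference there was not called, and the test of the change missed the threshold (-5.38 ± 2.35, edgeR adjusted p = 0.119). Of 18 heat shock genes tested, 11 were lower and 2 higher (median -0.31), or 12 and 3 without the third sh-IGFBP6 erastin library. In vehicle 8 were higher and 8 lower, and the difference between the line differences was lower for 13 and higher for 1.

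HSPA1A was at 103, 115 and 126 CPM in sh-IGFBP6 erastin and 541, 543 and 433 CPM in sh-LUC erastin (-2.21 ± 0.08). Its near-identical neighbour HSPA1B was at 245, 241 and 299.7 CPM in sh-IGFBP6 erastin and 1617, 1657 and 1256 CPM in sh-LUC erastin (-2.61 ± 0.10); reads that fit both genes make the split between them uncertain. For both, the vehicle levels were low, with means between 8.55 ± 0.498 CPM for HSPA1A in sh-IGFBP6 and 62.0 ± 2.03 CPM for HSPA1B in sh-LUC. DNAJB1, an HSP40 co-chaperone, was at 287, 292 and 296 CPM in sh-IGFBP6 erastin and 1166, 1105 and 954 CPM in sh-LUC erastin (-1.89 ± 0.06). HSPH1, a nucleotide exchange factor of HSP70, was at 481, 547 and 607 CPM in sh-IGFBP6 erastin and 1186, 1219 and 989 CPM in sh-LUC erastin (-1.10 ± 0.07). BAG3, a co-chaperone of selective autophagy, differed by -1.28 ± 0.07. In these 5 genes the lowest sh-LUC library lay above the highest sh-IGFBP6 library. For DNAJB1 and BAG3 the difference between the line differences was only -0.66 and -0.54. The larger part of each gap was thus there in vehicle too.

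HSP90AA1, the inducible cytosolic HSP90, did not differ at the threshold under erastin (-0.11 ± 0.06; edgeR adjusted p = 0.103), at 3243, 3464 and 3821 CPM in sh-IGFBP6 erastin and 3934, 4029 and 3297 CPM in sh-LUC erastin, but was higher in the knockdown line in vehicle (0.97 ± 0.06; chosen after its values were seen). It was called lower in 8 alternatives, without the third sh-IGFBP6 erastin library (-0.16, edgeR adjusted p = 0.0124) and without the third sh-LUC erastin library (-0.24, edgeR adjusted p = 0.00062) among them. The 2 higher members were HSPA4, an HSP110 family member (0.53 ± 0.06), and HSPE1, the mitochondrial co-chaperonin (0.26 ± 0.11). The call of HSPE1 was lost without the first or second sh-IGFBP6 erastin library or any sh-LUC erastin library (0.21 to 0.27, edgeR adjusted p = 0.0607 to 0.155). The heat shock element searched (GAA, TTC and GAA with 2 free bases between each) is in 0.487% of 27305 promoters, in 0.309% of the 11008 of tested genes, and in 4 of 17 heat shock genes with a promoter (DNAJA1, DNAJB6, HSPA6 and HSPA8). The HSPA6 promoter is shown for the gene with the lowest log2 fold change of the list, at chr1:161524290-161524589 (plus strand), with the match in capitals starting 74 bases before the gene start on the opposite strand.
HSPA6: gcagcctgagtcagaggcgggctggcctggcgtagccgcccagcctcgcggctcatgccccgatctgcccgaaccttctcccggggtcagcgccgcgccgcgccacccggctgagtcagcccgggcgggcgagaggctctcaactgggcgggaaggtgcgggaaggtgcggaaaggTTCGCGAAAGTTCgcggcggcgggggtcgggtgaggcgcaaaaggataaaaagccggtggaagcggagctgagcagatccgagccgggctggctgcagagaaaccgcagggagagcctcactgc

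NRF2 targets were lower more often than higher, 14 against 7 of 22 (median -0.34). In vehicle 11 were higher and 5 lower (median 0.18), and the difference between the line differences was higher for 3 and lower for 7. NQO1, a quinone reductase, was at 127, 114 and 158 CPM in sh-IGFBP6 erastin, against 1224, 1263 and 1318 CPM in sh-LUC erastin (-3.36 ± 0.08, 10.3-fold lower). It was lower in the knockdown line in vehicle too (-2.28 ± 0.07), and the difference between the line differences was -1.09 ± 0.10 (edgeR adjusted p = 2.56e-14). ABCC3, an exporter of conjugates, was at 34.3, 29.8 and 51.3 CPM in sh-IGFBP6 erastin and 336, 328 and 333 CPM in sh-LUC erastin (-3.33 ± 0.08). Unlike that of NQO1, its gap was narrower than in vehicle (difference between the line differences 0.53, edgeR adjusted p = 0.00121). That call was lost without the first sh-IGFBP6 erastin library (0.41, edgeR adjusted p = 0.0671). GCLM, the modifier subunit of glutathione synthesis, differed by -0.80 ± 0.07. TXNRD1 (thioredoxin reductase) differed by -0.24 ± 0.06, a call lost with libraries scaled by size alone (-0.13, edgeR adjusted p = 0.0555). Transcripts of the factor itself differed little: NFE2L2 was at 149.6, 143 and 154 CPM in sh-IGFBP6 erastin and 174, 180.2 and 174 CPM in sh-LUC erastin (-0.26 ± 0.07), a call lost with libraries scaled by size alone (-0.14, edgeR adjusted p = 0.0774). The aldo-keto reductases ran the other way, AKR1C3 by 3.74 ± 0.23 and AKR1C1 by 2.28 ± 0.21, at low levels and with close copies that share reads. The element searched, TGACNNNGC, is in 13.6% of all promoters, in 15.2% of those of tested genes, and in 5 of 16 of the list, and NQO1 was not among these.

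Of 26 enzymes of glutathione, thioredoxin and peroxide reduction 9 were higher and 13 lower. GLRX (glutaredoxin) was higher at 88.7, 89.6 and 94.6 CPM in sh-IGFBP6 erastin, against 25.3, 27.8 and 28.7 CPM in sh-LUC erastin (1.71 ± 0.09), and GSTP1, a glutathione transferase, by 0.95 ± 0.07. PRDX2, a cytosolic peroxiredoxin, was lower (-1.08 ± 0.08) and PRDX1 higher (0.69 ± 0.06), each as in vehicle (-1.17 and 0.80). The metallothioneins MT1E and MT1X, of a family that binds zinc and copper, stood higher under erastin. MT1E was at 277, 369.9 and 276 CPM in sh-IGFBP6 erastin and 105, 99.6 and 97.7 CPM in sh-LUC erastin (1.66 ± 0.08), with no called line difference in vehicle (-0.15 ± 0.10). MT1X was at 74.5, 95.3 and 98.6 CPM in sh-IGFBP6 erastin and 46.0, 35.2 and 37.1 CPM in sh-LUC erastin (1.10 ± 0.10), and was lower in the knockdown line in vehicle (-0.74 ± 0.21). The list of MT1E and MT1X also holds genes of zinc export: of its 6 members tested 4 were higher and none lower. Without the third sh-IGFBP6 erastin library 7 could be tested, with 4 higher and 1 lower. Close copies among metallothioneins share reads.

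Cholesterol synthesis stood higher in the knockdown line: 18 of 25 genes were higher and 4 lower (median 0.76; the same counts without the third sh-IGFBP6 erastin library), against 15 and 6 in vehicle (median 0.39), and the difference between the line differences was higher for 16 and lower for none. HMGCS1, which makes the precursor of mevalonate, was at 125, 135 and 103 CPM in sh-IGFBP6 erastin and 54.5, 57.5 and 55.6 CPM in sh-LUC erastin (1.20 ± 0.08). Its sh-LUC erastin level was the lowest of the 4 groups, below sh-LUC vehicle (114 ± 4.22 CPM). STARD4, a sterol carrier, was at 76.1, 83.7 and 55.2 CPM in sh-IGFBP6 erastin and at most 23.5 CPM in sh-LUC erastin (1.88 ± 0.10). For both genes the lowest sh-IGFBP6 library, the third, lay above every sh-LUC library. The sterol element TCACNCCAC is in 1.15% of all promoters, in 1.11% of those of tested genes, and in 1 of 18 of the list (SREBF2).

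Of 17 genes of fatty acid synthesis and desaturation 9 were higher and 4 lower. SCD, the delta-9 desaturase that makes monounsaturated fatty acids, was at 786, 871 and 611 CPM in sh-IGFBP6 erastin, against 326, 337 and 345 CPM in sh-LUC erastin (1.23 ± 0.08). The lines did not differ at the threshold in vehicle (0.08 ± 0.07), and the difference between the line differences was 1.15 ± 0.11 (edgeR adjusted p = 3.3e-10). FADS2, the delta-6 desaturase, was at 386, 398 and 252 CPM in sh-IGFBP6 erastin and 133, 151 and 162 CPM in sh-LUC erastin (1.35 ± 0.06), and FADS1, the delta-5 desaturase, differed by 1.04 ± 0.06. ACSL1, a long-chain acyl-CoA synthetase, and ELOVL7, an elongase, were lower (-2.14 ± 0.19 and -3.03 ± 0.26). Of 21 genes of lipid droplets, PPAR targets and fatty acid oxidation 6 were higher and 8 lower: ANGPTL4, an inhibitor of lipoprotein lipase, differed by -2.58 ± 0.12, PLIN2, a droplet coat protein, by -0.72 ± 0.07, and G0S2, an inhibitor of triglyceride lipase, by 3.12 ± 0.18.

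Inflammatory genes held some of the widest gaps. Among cytokines, chemokines and other NF-kB targets 11 of 21 were higher and 7 lower (median 0.99). CCL2, a monocyte attractant, was at 92.4, 78.5 and 74.9 CPM in sh-IGFBP6 erastin, against 0.455, 0.139 and 0.133 CPM in sh-LUC erastin (8.37 ± 0.21). IL1B was at 166, 122 and 134 CPM in sh-IGFBP6 erastin and 1.37, 1.53 and 1.33 CPM in sh-LUC erastin (6.66 ± 0.15). For both the gap was wider than in vehicle. The difference between the line differences was 2.37 ± 0.87 for CCL2 (edgeR adjusted p = 0.0315) and 1.48 ± 0.45 for IL1B (edgeR adjusted p = 0.00865). Without the first sh-LUC vehicle library these values were 1.28 for CCL2 (edgeR adjusted p = 0.522) and 1.10 for IL1B (edgeR adjusted p = 0.146). The call for CCL2 was also lost without the first sh-IGFBP6 erastin library or sh-LUC erastin library 2 or 3 (2.06 to 2.19, edgeR adjusted p = 0.0573 to 0.0872). IL24, a cytokine of the IL-10 family, was also higher (3.21 ± 0.12) but by less than in vehicle (6.04 ± 0.26), and IL6 was lower (-1.84 ± 0.23). Immediate early genes were split, 9 higher and 9 lower of 19: FOS was at 388, 441 and 272 CPM in sh-IGFBP6 erastin and 115, 113 and 96.9 CPM in sh-LUC erastin (1.89 ± 0.07), and JUND at 139.8, 173 and 166 CPM in sh-IGFBP6 erastin and 506, 496 and 476 CPM in sh-LUC erastin (-1.66 ± 0.07). Of 21 interferon response genes 7 were higher and 11 lower, with IFI44L at 4.59 ± 0.20 and MX1, an antiviral GTPase, at -4.21 ± 0.27.

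Of 20 chaperones and enzymes of the endoplasmic reticulum 8 were higher and 8 lower, with P4HB, a disulfide isomerase, at -0.99 ± 0.06 and HSP90B1, the HSP90 of that compartment, at 0.74 ± 0.06.

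Genes of matrix, adhesion and insulin-like growth factor signalling were mostly lower, under erastin and in vehicle. Of 28 genes of the mesenchymal state and matrix 17 were lower and 9 higher (median -0.66), and the difference between the line differences was higher for 13 and lower for 3. FN1 (fibronectin) was at 361, 341 and 343 CPM in sh-IGFBP6 erastin, against 2643, 2608 and 3000 CPM in sh-LUC erastin (-2.97 ± 0.07; vehicle -2.87 ± 0.06). COL5A1, a fibrillar collagen chain, was at 1.12, 1.74 and 0 CPM in sh-IGFBP6 erastin and 432, 439 and 486 CPM in sh-LUC erastin (-8.38 ± 0.13). LOX, which crosslinks collagen, was higher (2.15 ± 0.07), as was TNC (tenascin C, 2.82 ± 0.09). Of 14 integrins 11 were lower and 3 higher: ITGA3, a laminin-binding subunit, was at 499.5, 515 and 454 CPM in sh-IGFBP6 erastin and 2350, 2258 and 2542 CPM in sh-LUC erastin (-2.26 ± 0.06), while ITGA2, a collagen-binding subunit, was higher (1.09 ± 0.06).

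Of 10 genes of the insulin-like growth factor system, IGFBP6 included, 8 were lower and 1 higher. IGFBP7 was at 59.6, 56.3 and 55.2 CPM in sh-IGFBP6 erastin and 296, 331 and 357 CPM in sh-LUC erastin (-2.50 ± 0.08), the receptors INSR and IGF1R differed by -3.39 ± 0.12 and -1.30 ± 0.07, and IGF2R, which clears insulin-like growth factor 2, was higher (0.17 ± 0.06). The call of IGF2R was lost without the first or second sh-IGFBP6 erastin library, any sh-LUC erastin library or the second sh-LUC vehicle library (0.10 to 0.14, edgeR adjusted p = 0.0509 to 0.189). Of 20 genes of hypoxia and glycolysis 13 were lower and 3 higher (1 higher without the first or second sh-IGFBP6 or the third sh-LUC erastin library). EGLN3, an oxygen-sensing hydroxylase, had no count in any sh-IGFBP6 erastin library, against 51.3, 46.6 and 41.1 CPM in sh-LUC erastin. VEGFA was at 80.4, 62.9 and 59.2 CPM in sh-IGFBP6 erastin and 566, 549 and 570.2 CPM in sh-LUC erastin (-2.96 ± 0.07). Lysosomal and autophagy genes were split (7 higher and 9 lower of 20). CTSD, an aspartic protease of the lysosome, was at 69.2, 71.3 and 106 CPM in sh-IGFBP6 erastin and 976, 1050 and 1023 CPM in sh-LUC erastin (-3.82 ± 0.07), and CTSL, a cysteine protease, was higher (1.83 ± 0.10).

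Of 22 mitotic genes 13 were higher and 2 lower in the knockdown line under erastin (median 0.23), against 5 and 8 in vehicle, and the difference between the line differences was higher for 14 and lower for none. These counts rest in part on 1 library: without the first sh-IGFBP6 erastin library 7 were higher and 3 lower (median 0.10) and the difference was higher for 6. Without the third sh-LUC erastin library the difference was higher for 9. PLK1, a mitotic kinase, was at 81.1, 79.6 and 55.2 CPM in sh-IGFBP6 erastin, against 33.2, 34.2 and 30.2 CPM in sh-LUC erastin (1.29 ± 0.09). CDC20, an activator of the anaphase-promoting complex, was at 154, 154 and 90.7 CPM in sh-IGFBP6 erastin and 55.4, 55.9 and 55.0 CPM in sh-LUC erastin (1.44 ± 0.08). MKI67, the proliferation marker, differed by 0.23 ± 0.06, a call lost without the first sh-IGFBP6 erastin library (0.10, edgeR adjusted p = 0.241). DNA replication genes did the opposite in the test of the difference, lower for 17 of 25 and higher for none. Under erastin 8 of them were higher and 10 lower, with TYMS (thymidylate synthase) at -1.44 ± 0.10, MCM6, a helicase subunit, at -0.80 ± 0.07 and RRM1, a subunit of ribonucleotide reductase, at 0.64 ± 0.06.

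Of 18 p53 targets 4 were higher and 5 lower. CDKN1A (p21), the cell cycle inhibitor, overlapped between the groups, at 199, 226 and 189 CPM in sh-IGFBP6 erastin and 240.2, 217 and 202 CPM in sh-LUC erastin (-0.06 ± 0.07; edgeR adjusted p = 0.39), although it was lower in the knockdown line in vehicle (-0.74 ± 0.09). Of 14 BCL2 family genes 4 were higher (2 without the first sh-IGFBP6 erastin library) and 5 lower. Without the third sh-IGFBP6 vehicle library or the first sh-LUC vehicle library 8 were lower. BCL2L1 (BCL-XL, against apoptosis) differed by -1.49 ± 0.07 and BID, which promotes apoptosis, by 0.76 ± 0.13. Cytosolic ribosomal protein genes were higher in 25 of 30 and lower in 1 (median 0.62; 0.61 in vehicle), RPL11 among them with 1.61 ± 0.06; processed copies of these genes share reads. Messenger RNAs of the mitochondrial genome made up 3.61% to 16.3% of the remaining counts in sh-IGFBP6 erastin and 6.16% to 9.33% in sh-LUC erastin, the 16.3% being that of the third library. Of the 13, only MT-CO1, a subunit of complex IV, was called (-0.88 ± 0.32), with 12763, 8880 and 28342 CPM in sh-IGFBP6 erastin and 35309, 31637 and 24142 CPM in sh-LUC erastin, where the groups overlap. The call was lost without the first sh-IGFBP6 erastin library (-0.82, edgeR adjusted p = 0.0661) or the first sh-LUC erastin library (-0.83, edgeR adjusted p = 0.0504), and the value was -1.48 without the third sh-IGFBP6 erastin library. The median of the 13 was 0.40, and it was -0.55 without the third sh-IGFBP6 erastin library, where 5 were lower, so 1 library sets the direction. It was 0.71 without the second sh-IGFBP6 erastin library, where 2 were higher, and 0.11 without the third sh-LUC erastin library.

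**Figure D4:**
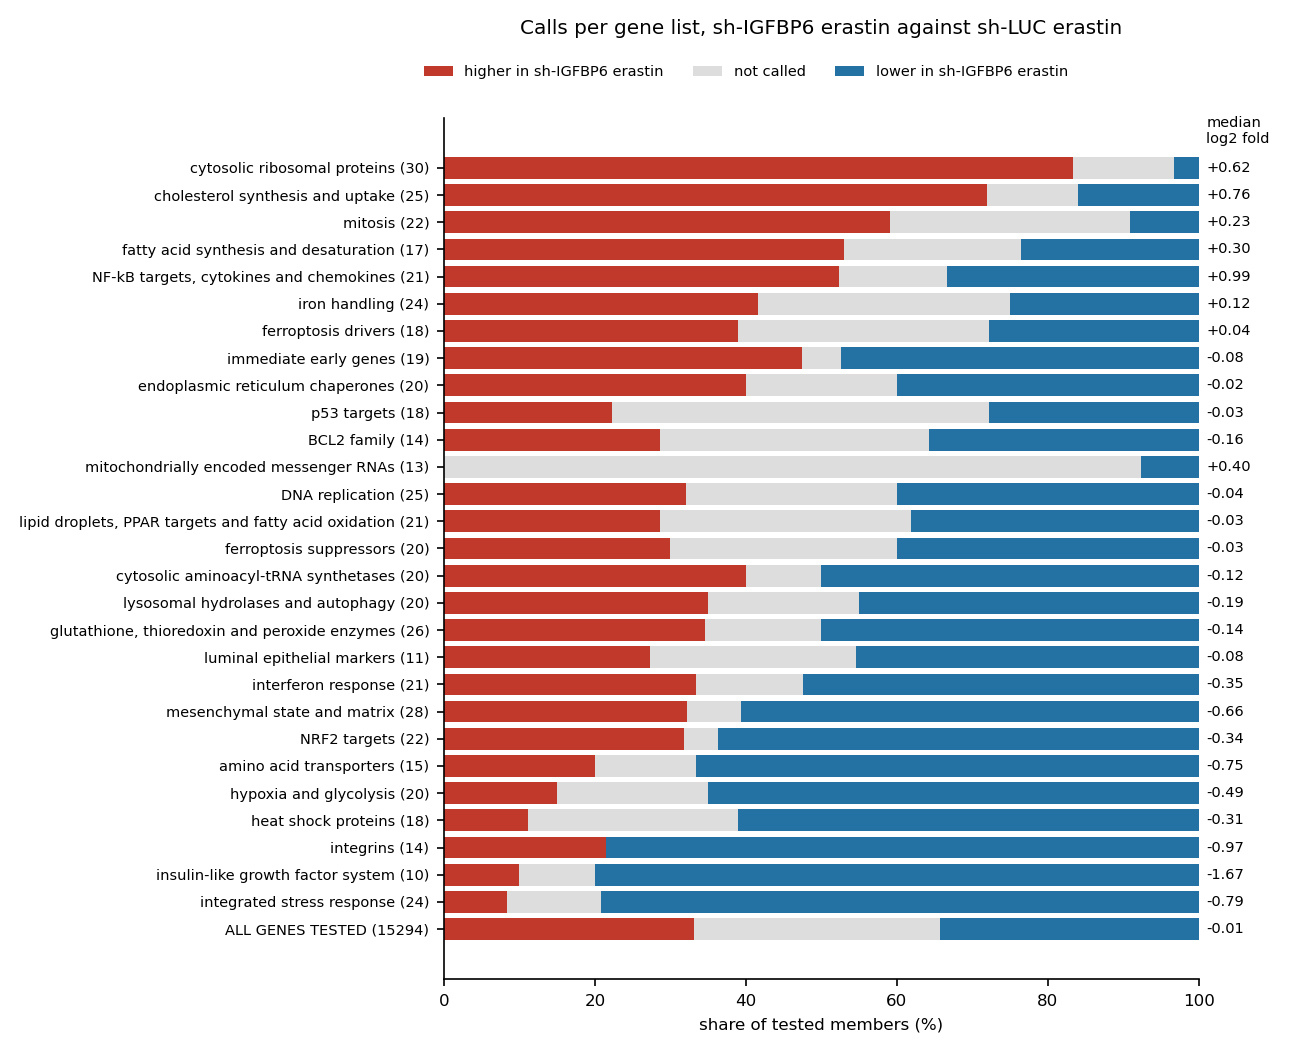
Share of the tested members (x axis, %) of each list with at least 10 tested members that were higher, not called or lower in sh-IGFBP6 erastin against sh-LUC erastin, with the number tested in parentheses and the median log2 fold change at the right. The lowest bar gives all 15294 genes (33.2% higher, 34.2% lower). In the integrated stress response 19 of 24 were lower, and in cytosolic ribosomal proteins 25 of 30 were higher.

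The widest gaps were near-absence in 1 line. Among 11639 genes that averaged 5 CPM or more over the 6 erastin libraries, 17 had no count in any sh-LUC erastin library and 23 none in any sh-IGFBP6 erastin library. Against a floor of 3 counts over the group, IL13RA2, a decoy receptor of interleukin 13, was at least 631-fold higher in sh-IGFBP6 erastin, with 85.0, 95.7 and 78.9 CPM there. MSX1, a homeobox factor, was at least 234-fold higher, and BCL2A1, an NF-kB target of the BCL2 family, at least 83.9-fold. LYPD6B, a membrane-anchored protein, was at least 352-fold lower, with 80.7, 95.9 and 87.0 CPM in sh-LUC erastin, and FMOD (fibromodulin, a matrix proteoglycan) at least 258-fold. NCKAP1L, a haematopoietic subunit of the WAVE actin complex, had 2952 counts in sh-IGFBP6 erastin and 3 in sh-LUC erastin, a ratio of 1745 (exact 95% interval 596 to 8465, counting error only). CCND2 (cyclin D2) had 1647 counts in sh-IGFBP6 erastin and 3 in sh-LUC erastin, a ratio of 974 (332.5 to 4725). SERPINB2, an inhibitor of urokinase, stood at 273, 271 and 434 CPM in sh-IGFBP6 erastin and 0.455, 0.417 and 0.133 CPM in sh-LUC erastin (9.65 ± 0.17). In vehicle each of these genes was called in the same direction.

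The line difference under erastin largely followed that in vehicle. In vehicle 9837 genes (64.3%) were called. 7506 genes were called in the same direction in both comparisons, 72.8% of the erastin calls and 76.3% of the vehicle calls. 358 were called in opposite directions, 3.47% of the erastin calls: 161 (1.05% of all tested) were higher in the knockdown line under erastin and lower in vehicle, and 197 (1.29%) the reverse. The difference itself was called for 3973 genes, 2160 higher and 1813 lower under erastin.

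Among called genes averaging 5 CPM or more, the 5 with the smallest p of the difference on the lower side were SLC7A11, TFRC, MTHFD2, PSAT1 and SLC7A1, a cystine carrier, an iron carrier, 2 enzymes of 1-carbon and serine metabolism, and a carrier of basic amino acids. The 5 on the higher side were RHOB, CSF1, ZMIZ1, SAT1 and SYNPO. RHOB, a stress-responsive small GTPase, was at 129.8, 128 and 98.6 CPM in sh-IGFBP6 erastin and 344, 313 and 281 CPM in sh-LUC erastin (-1.29 ± 0.07), a smaller gap than in vehicle, where it was at 6.48 ± 0.667 CPM in sh-IGFBP6 and 113 ± 6.00 CPM in sh-LUC (-4.13 ± 0.13). CSF1, the growth factor of macrophages, differed by -2.63 ± 0.08 under erastin and -4.76 ± 0.08 in vehicle. ZMIZ1, a transcriptional coregulator, differed by -0.47 ± 0.07 under erastin and -2.19 ± 0.07 in vehicle. SYNPO (synaptopodin, an actin-binding protein) was at 38.2, 33.9 and 39.4 CPM in sh-IGFBP6 erastin and 29.9, 28.2 and 28.8 CPM in sh-LUC erastin (0.33 ± 0.11), with -1.73 ± 0.09 in vehicle; its call under erastin was no longer made without the first sh-IGFBP6 erastin library (0.21, edgeR adjusted p = 0.211).

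**Figure D5:**
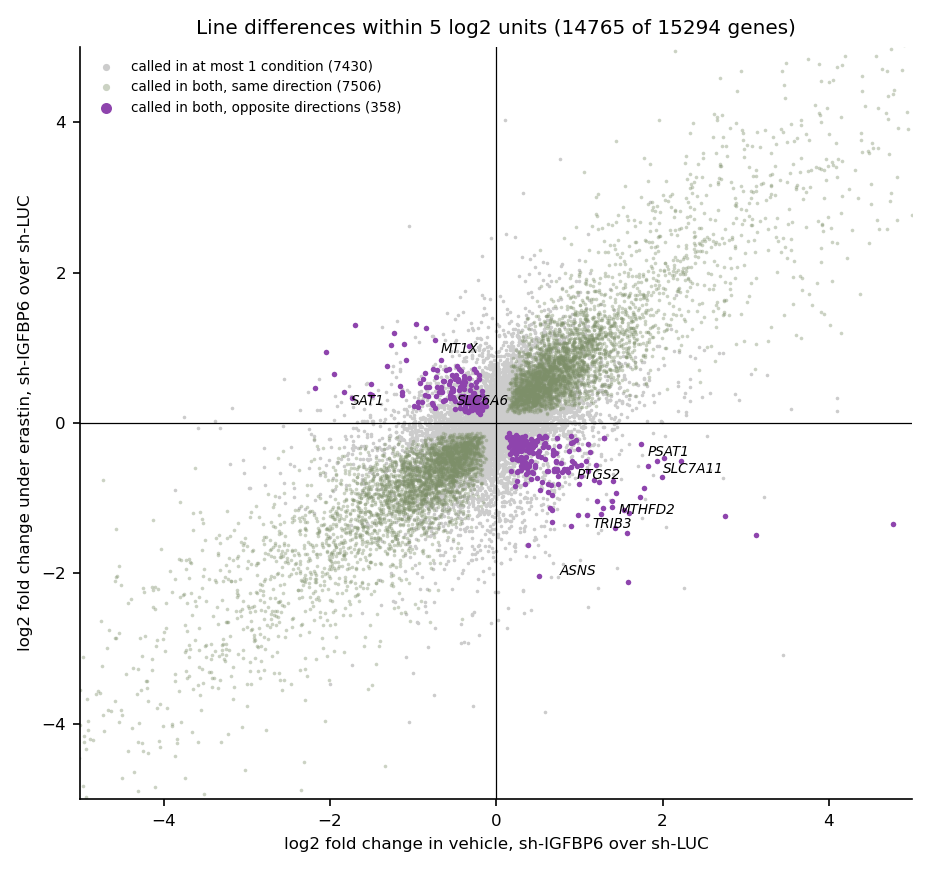
Log2 fold change of sh-IGFBP6 over sh-LUC in vehicle (x axis) and under erastin (y axis) for the 14765 of 15294 genes within 5 log2 units on both axes. Most points lie along the rising diagonal, and the 358 genes called in opposite directions, among them SLC7A11, PSAT1 and MTHFD2, fill the other 2 quadrants.

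Protein-coding genes also differed by chromosome. On chromosome 12, 389 of 683 tested genes were higher in the knockdown line under erastin and 136 lower (median 0.40), and on chromosome 14, 228 of 420 were higher and 64 lower (median 0.33). On chromosome 21, 76 of 117 were lower and 20 higher (median -0.55), and on chromosome 20, 189 of 333 were lower and 54 higher (median -0.34). In vehicle the medians of these chromosomes were 0.36, 0.33, -0.56 and -0.37. These values are a description, since neighbouring genes are not independent of each other.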

How the data were processed

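RNA of 18 libraries was measured by RNA-seq after ribosomal RNA depletion: 800000 cells per well, cultured for 24 h in 10% serum and treated for 24 h. The authors deposited raw gene counts, made with cutadapt 4.4, STAR 2.7.7a and featureCounts on GRCh38, per the submitters' processing notes; for the annotation release, strandedness and version of featureCounts, the sources used here give nothing. Without a known strand setting, overlapping and antisense genes cannot be told apart, and close copies (HSPA1A and HSPA1B, metallothioneins, AKR1C and ribosomal protein genes) may share reads. Rows that name no gene (at most 0.0108% of counts) and MT-RNR1 and MT-RNR2 were left out of library sizes and tests. All 18 libraries, with 1 coefficient for each of the 6 groups and 12 residual degrees of freedom, were fitted in edgeR 4.0.16 (R 4.3.3; TMM, filterByExpr with a minimum count of 10 and total of 15, robust quasi-likelihood F test, Benjamini-Hochberg adjustment), and the script was tested on simulated data. Contrasts were sh-IGFBP6 against sh-LUC under erastin, the same in vehicle, and their difference. Levels are CPM of the TMM-scaled library size. SE is the log2 fold change over the root of F, or a Wald form where F is below 1. It understates the error where a group has few counts. Intervals and the floor of 3 counts cover counting error only.

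Genes named were key genes of ferroptosis, the 10 with the widest difference each way (called, at least 5 CPM on average, groups apart), in each list up to 4 called genes (by smallest p) and up to 2 that went against its majority, and the 5 with the smallest p of the difference each way. ASNS, HSPA1B, SESN2, HSP90AA1, the remaining genes of the count of 10 stress genes, and the markers VIM and CDH1 were added after their values were seen. Some genes that the rule names are not reported here. Members and lists were chosen with earlier results of these data known. Alternatives were each of the 12 erastin and vehicle libraries left out in turn, and DESeq2 1.42.0 and its size factors. Further ones were other scaling and filters, the erastin libraries alone, and a replicate block. No DHA library was left out singly. Gene names came from a table of gene IDs, coordinates from GENCODE 29 and promoters from RefSeq.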

Additional observations from a re-analysis of the deposited data

Results flagged for a closer look

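For 31 of 40 genes named above, the line difference under erastin and that in vehicle differed. The test was that of the difference itself (edgeR adjusted p below 0.05). For these 40, both line differences, the levels behind them or the difference itself were given. DNAJB1, BAG3 and ABCC3, whose difference was also called and given above, were not among the 40. The 40 include genes named for the smallest p of this same difference and genes added after their values were seen. Their share called is therefore no result when set beside the 26.0% of all genes. Values are the log2 line difference under erastin minus that in vehicle. 18 were negative. Among genes of amino acid supply and the integrated stress response they were -2.43 for SLC7A11, -2.43 for MTHFD2, -2.41 for ATF3, -2.39 for PHGDH, -2.31 for TRIB3, -2.02 for PSAT1, -1.42 for SLC7A1, -1.27 for SLC7A5, -0.996 for GDF15 and -0.64 for SLC6A9. Among chaperones they were -2.19 for HSPA1B, -1.52 for HSPA1A and -1.08 for HSP90AA1. The others were -2.83 for IL24, -1.91 for TFRC, -1.72 for HMOX1, -1.48 for PTGS2 and -1.09 for NQO1.

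13 were positive. Among genes of lipid synthesis they were 1.15 for SCD and 0.66 for HMGCS1. The metallothioneins MT1X and MT1E had 1.85 and 1.81. The cytokines CCL2, CSF1 and IL1B had 2.37, 2.12 and 1.48. The others were 2.84 for RHOB, 2.24 for SAT1, 2.06 for SYNPO, 1.71 for ZMIZ1, 0.95 for SLC6A6 and 0.67 for CDKN1A. The 2 metallothioneins are close copies that can share reads, as are HSPA1A and HSPA1B. The call for SLC6A9 was lost without the second sh-IGFBP6 erastin library (-0.58, edgeR adjusted p = 0.0840), the second sh-IGFBP6 vehicle library (-0.26, edgeR adjusted p = 0.588) or the second sh-LUC vehicle library (-0.56, edgeR adjusted p = 0.0865). That call was also lost with DESeq2 (-0.655, Wald test adjusted p = 0.0623) and with no filter on low counts (-0.647, edgeR adjusted p = 0.0618). With no filter the call for CCL2 was lost too (2.36, edgeR adjusted p = 0.0767). The calls for CCL2, IL1B and GDF15 also depended on single libraries, as given above.

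Outside the genes tested, MT-RNR1 and MT-RNR2 made up 54.4% of the counts of the third sh-IGFBP6 erastin library, against at most 0.504% in the other 17. Libraries were made after ribosomal RNA depletion, per the labels' protocols; the part of that step in this value was not tested.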

How the results depend on the processing

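No gene was called in opposite directions under erastin between the fit reported and any alternative. Called genes numbered 8914 to 10520 with any 1 of the 12 erastin and vehicle libraries left out. Of these, 4182 to 5215 were higher and 4732 to 5525 lower. More genes passed the filter in these fits, 15657 to 15880 against 15294, so their counts are not over the same genes. At least 2-fold higher were 1687 to 1870 and 2-fold lower 2114 to 2262. In vehicle 9306 to 10013 were called, for the difference 3134 to 4009, in the same direction in both conditions 6832 to 7598 and in opposite directions 266 to 360. With library size as the only scaling 58% of the erastin calls were higher (5990 against 4343 lower) in place of 49.2%, and the median of all genes was 0.12; the medians for aminoacyl-tRNA synthetases, ferroptosis suppressors, lipid droplets, endoplasmic reticulum chaperones, immediate early genes, DNA replication, p53 targets and luminal markers then changed sign. DESeq2 called 8894 genes, 8882 shared in direction, but 210 in opposite directions in place of 358. An alternative chosen after seeing the data kept MT-RNR1 and MT-RNR2 in library sizes, with no other scaling. There the difference was called for 1341 genes and opposite directions for 140. Of 108 named genes with a called difference, 61 lost that call. SCD, HMGCS1, CDKN1A, SLC6A6, SLC6A9, CCL2, IL1B and GDF15 were among them. The difference for CALR turned from 0.249 to -0.022 and was not called. Genes at least 2-fold apart numbered 995 higher and 1221 lower with a filter of 5 CPM on the mean, and 2674 higher with no filter, as fewer or more low genes were tested. The cause of the other shifts was not tested. Same-numbered libraries of the 2 lines did not deviate together (correlations of deviations -0.10 to -0.03 under erastin and -0.15 to 0.00 in vehicle). Deviations from means of so few libraries, 1 of them shallow, cannot show whether the numbers pair them. With a replicate block 10286 genes were called, 5070 higher and 5216 lower, and all 192 named genes kept their call. Depth limits low genes most in the third sh-IGFBP6 erastin library, where 3 counts are 11.8 CPM, against 0.400 to 0.652 CPM in the other 5 erastin libraries.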

Other observations

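Markers of epithelial state, which the comparison above used only as sums, were split under erastin. Of 11 luminal markers tested 3 were higher and 5 lower, and all 4 basal markers tested were called, 1 higher and 3 lower. FOXA1, a pioneer transcription factor of luminal cells, was at 37.5, 35.2 and 31.5 CPM in sh-IGFBP6 erastin and 0.607, 0.278 and 0.667 CPM in sh-LUC erastin (6.07 ± 0.23). KRT7, a simple epithelial keratin, was at 144, 118 and 138 CPM in sh-IGFBP6 erastin and 518, 494 and 512 CPM in sh-LUC erastin (-1.94 ± 0.07). EGFR, the epidermal growth factor receptor, was the higher basal marker, at 1250, 1159 and 1183 CPM in sh-IGFBP6 erastin and 965, 912 and 929 CPM in sh-LUC erastin (0.36 ± 0.06), and makes up nearly all of the summed level of that list. CDH3 (P-cadherin) was at most 0.435 CPM in the sh-IGFBP6 erastin libraries and at least 9.71 CPM in the sh-LUC erastin libraries (-4.60 ± 0.37).

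Some further members of the lists above also stood apart. LIF, a cytokine of the IL-6 family, differed by -0.54 ± 0.07, with 93.6, 91.3 and 71.0 CPM in sh-IGFBP6 erastin and 141, 123 and 135 CPM in sh-LUC erastin. DPP4, a membrane peptidase linked to ferroptosis, was at 10.2, 7.18 and 7.89 CPM in sh-IGFBP6 erastin and 0.607, 1.39 and 0.534 CPM in sh-LUC erastin (3.36 ± 0.32). TFR2, a second transferrin receptor, was at 5.31, 6.52 and 11.8 CPM in sh-IGFBP6 erastin and 0.607, 0.695 and 0.534 CPM in sh-LUC erastin (3.24 ± 0.38). BTG2, an antiproliferative p53 target, was at 0.280, 0.652 and 0 CPM in sh-IGFBP6 erastin and 20.5, 20.4 and 20.8 CPM in sh-LUC erastin (-5.54 ± 0.33).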
